A study of Canis lupus familiaris with 77 samples.

Results

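The miRNAs described here are miR-144, miR-451 and miR-486, which are known from red blood cells, in a small RNA sequencing atlas of beagle dog tissues. Their rows were taken from the deposited table by the first name of each row: cfa-miR-144, whose row also carries the name of the human 3p arm, hsa-miR-144-5p for the opposite arm of the same hairpin, cfa-miR-451, and cfa-miR-486, whose row merges the names of both arms. These 4 rows were all found, among 650 miRNA rows in the table, and each was above 0 in all 76 libraries used. Since the miR-486 row carries names of both arms, its arms could not be separated.

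The study took 16 tissues from 5 untreated male Marshall beagle dogs under a year old, and the dogs were perfused with phosphate buffered saline before the organs were removed so that less blood was left in them. There were 5 samples of each tissue except colon, with 4 samples here, and sciatic nerve, with 2. Plasma was the cell-free fluid of blood drawn into K2EDTA tubes and bone marrow was drawn as a liquid sample; the other 14 tissues (66 samples) are called solid tissues below: liver, heart, skeletal muscle from the quadriceps, brain, lung, kidney, thymus, testis, pancreas, duodenum, jejunum, ileum, colon and sciatic nerve. The sciatic nerve gave little RNA, and the study describes its samples in one place as pooled and in another as 2 individual samples beside a pool, so whether the 2 used here are single animals is not settled. The study extracted RNA from tissues with a magnetic bead kit and from bone marrow with TriReagent, and describes the plasma isolation separately. Sample type and extraction therefore cannot be told apart in any comparison with plasma or bone marrow. The tissues share the same 5 dogs, but the labels do not say which sample came from which dog. The tests therefore treat all libraries as independent, which they are not across tissues, and p-values measure the spread between samples only.

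In red-cell precursors the hairpins of miR-144 and miR-451 are made as parts of one transcript under the erythroid factor GATA1. miR-451 is matured in an unusual way, by the slicing protein Ago2 without Dicer, and helps late erythroblasts to mature. miR-486 is cut from an intron of ANK1, the gene of the ankyrin that anchors the red-cell membrane skeleton, and a muscle promoter of the same gene also makes it in heart and skeletal muscle. Mature red cells have no nucleus but keep these small RNAs, so the miRNAs also serve as signs of red cells, or of their lysis, in plasma and in tissue. In the RefSeq annotation of the dog assembly UU_Cfam_GSD_1.0, which is not the build the reads were aligned to, MIR144 and MIR451 were direct neighbours with no gene between them and MIR486 lay inside ANK1.

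Levels are given as RPM, each miRNA's reads scaled by the library's total of reads on miRNAs. The libraries held 157871 to 7896424 such reads (median 1364823), and a level of 3 reads, under which a miRNA may go unseen, stood for 0.380 to 19.0 RPM, counting error only. The bone marrow libraries were shallow, at 162310 to 239023 reads. The study reports low RNA integrity for plasma, bone marrow and some kidney samples, and a lower share of mapped reads in bone marrow. Most tissues were highest in the miRNAs that mark them, among them miR-122 in liver, miR-124 in brain and miR-216a in pancreas, while the lung marker miR-34b had a median of 0 RPM in lung and the gut markers were highest in jejunum. The only thymus marker, miR-181a, was highest in brain, and thymus ranked 4 in it. Even the lowest thymus library (41991 RPM) was above the median of all other samples (28555 RPM). Lung, whose marker was near 0, and plasma, for which no marker was listed, could not be judged by a marker. Among the other tissues there were 8 libraries in which every marker of their own tissue lay below 20% of the highest library of that tissue: duodenum 3 and 4, skeletal muscle 4, testis 2 and 3, and thymus 2, 3 and 5. Results that rest on them are given with and without them, a choice made after the data were seen.

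miR-486 was the most abundant miRNA in every plasma library. It took 76.1% of the reads of plasma 1 (95% Wilson interval 75.9 to 76.2), 42.3% of plasma 2, 57.9% of plasma 3, 51.3% of plasma 4 and 60.0% of plasma 5. Every plasma library was above every library of any other tissue, of which the highest, heart 4, had 274598 RPM. In bone marrow, where red cells are made, its levels were 90081, 65253, 93202, 52663 and 61799 RPM, and 14 of the 66 solid tissue samples were above the lowest of these. All 4 miRNAs together held 54.5 to 81.6% of the reads in plasma, 8.43 to 14.6% in bone marrow, up to 27.5% in heart (median 12.1) and less than a percent in every jejunum, testis and colon library.

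miR-451 was the second most abundant miRNA of every plasma library, at 52993, 116508, 98088, 82461 and 79853 RPM. Bone marrow had 53472, 30491, 49971, 30394 and 38793 RPM, so the lowest plasma library and the highest marrow library overlapped by a small margin. No solid tissue library reached the lowest marrow library: the highest, lung 2, had 9124 RPM. Among solid tissues the median was highest in liver, with 8747, 5169, 7062, 4611 and 6236 RPM, and lowest in ileum (420 RPM), testis (459 RPM) and colon (478 RPM). Lung spread widely, with 5215, 9124 and 5485 RPM in 3 of its libraries, 3889 RPM in lung 5 and 926 RPM in lung 4. In the order of the tissue medians, bone marrow and liver were the only neighbours whose ranges did not overlap.

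Both arms of miR-144 had their highest tissue median in plasma and the next in bone marrow, with a wider gap for the 3p arm. The 3p arm, miR-144, was at 1925, 3979, 3733, 3724 and 3741 RPM in plasma, above every marrow library (1374, 807, 1032, 582 and 625 RPM). The 5p arm, miR-144-5p, was at 633, 1467, 1062, 1100 and 930 RPM in plasma and at 1140, 778, 1502, 619 and 704 RPM in bone marrow, and the tissues overlapped. Liver followed for both arms: miR-144 had 665, 399, 659, 119 and 312 RPM there, of which 2 libraries were above the lowest marrow library, and miR-144-5p had 416, 164, 387, 131 and 166 RPM, all below bone marrow. The lowest tissue medians were 13.7 RPM for miR-144 in sciatic nerve, with brain at 13.8 RPM, and 5.92 RPM for miR-144-5p in testis, levels at which single libraries of low depth hold few reads.

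**Figure D1:**
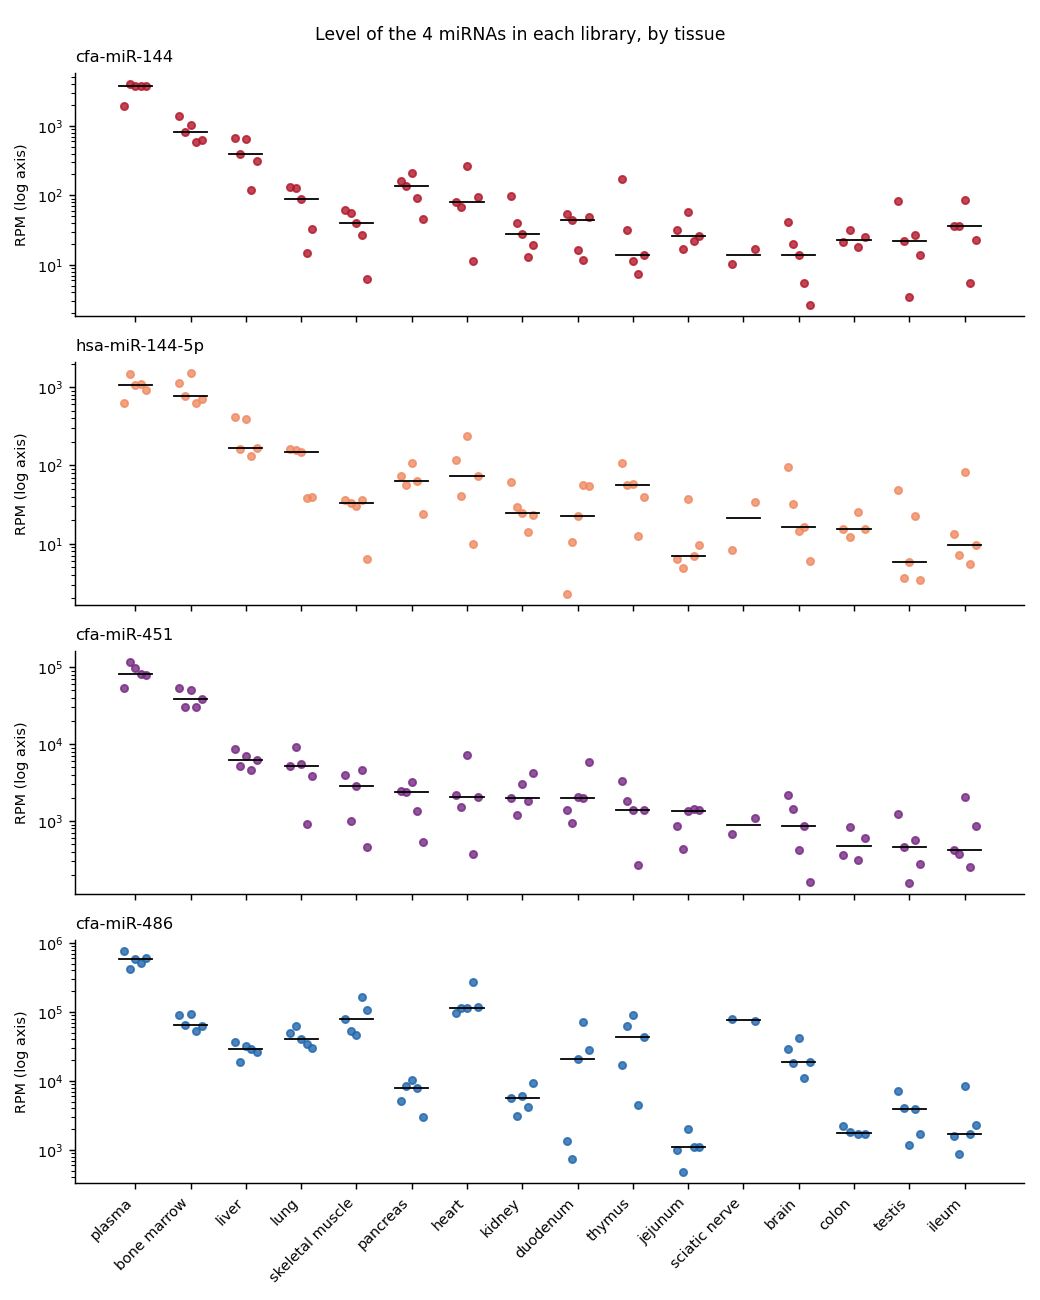
RPM on log axes of miR-144, miR-144-5p, miR-451 and miR-486 in every library (points, in sample order within a tissue) with the tissue median (line); tissues are ordered by the median of miR-451. Plasma and bone marrow stand above all solid libraries for miR-144-5p and miR-451. For miR-144 plasma does as well, but 2 liver libraries pass the lowest marrow library. miR-486 in heart and skeletal muscle reaches or passes bone marrow.

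The study called a miRNA tissue enriched (TE) when the mean RPM exceeded 5 times the mean of the remaining samples and the rank-sum test, here exact and two-sided with Benjamini-Hochberg adjustment over 650 miRNAs, had an adjusted p under 0.05. By this rule all 4 miRNAs were TE in plasma, where 4.31% of all miRNAs were. The folds over all other samples were 25.2 for miR-144, 17.5 for miR-451, 15.6 for miR-486 and 8.57 for miR-144-5p. The adjusted p of the exact test was 3.06e-06 for miR-144 and miR-486, 5.03e-06 for miR-451 and 0.000182 for miR-144-5p, and all 5 plasma libraries were above all other libraries for miR-144 and miR-486, 4 of 5 for miR-451 and 0 of 5 for miR-144-5p.

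In bone marrow miR-144-5p (7.44 times) and miR-451 (5.01 times) were TE, 2 of 4, where 3.08% of all miRNAs were. The fold was 2.81 for miR-144 and 1.01 for miR-486. Both calls were lost with TMM-scaled totals (3.93 times for miR-144-5p and 2.41 for miR-451) and with the miR-486 reads left out of the totals (4.47 and 2.65). The miR-451 call also stood at the limit of the rule: with any 1 of the 76 libraries left out it was lost in all but 10 cases, at folds of 4.61 to 6.19, and without the 8 libraries low in their own markers the fold was 4.55. Plasma is among the samples that bone marrow is compared with. Against solid tissues only, the folds in bone marrow were 18.3 for miR-451, 16.2 for miR-144-5p and 11.2 for miR-144, all 3 TE, and 2.13 for miR-486. No other tissue had a TE call for any of them, so that 6 of 64 combinations of miRNA and tissue were called, against 3.62% over all miRNAs and tissues.

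A model over all 76 libraries (edgeR quasi-likelihood test on the counts, with TMM scaling and Benjamini-Hochberg adjustment over the 480 miRNAs tested) put plasma against the mean of the solid tissues. The mean over tissues is taken on the log scale in this model. Its changes are therefore another measure than the folds of mean RPM above. All 4 miRNAs were higher in plasma, where 28.8% of all miRNAs tested were. The log2 fold change was 6.98 for miR-144 (SE 0.336), 6.47 for miR-451 (SE 0.305), 6.03 for miR-486 (SE 0.355) and 5.46 for miR-144-5p (SE 0.330), with adjusted p of 5.17e-24 or less in edgeR, beside a median of -0.66 over all miRNAs tested. Of 6 other miRNAs known from red cells, listed for comparison, miR-16, miR-25, miR-92a and miR-93 were higher and miR-185 was lower in plasma. The largest of these changes, 4.62 for miR-93, was below that of any of the 4 miRNAs described here. Plasma also carried leukocyte miRNAs: miR-142, miR-150 and miR-223 were higher and miR-155 and miR-342 lower, of 6 listed. The summed level of the leukocyte list was 13407 to 39529 RPM in plasma, 18036 to 29148 RPM in bone marrow and 215 to 24718 RPM in solid tissues with no plasma library at 0 for its main member miR-142, and its part in the levels of the red-cell miRNAs was not tested.

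Bone marrow was higher than the mean of the solid tissues in all 4 miRNAs, where 17.9% of all miRNAs tested were higher. The log2 fold changes were 4.20 for miR-451 (SE 0.289), 4.18 for miR-144-5p (SE 0.337), 3.84 for miR-144 (SE 0.326) and 1.75 for miR-486 (SE 0.406), with adjusted p of 0.000216 or less in edgeR and a median of -1.03 over all miRNAs tested. In the red-cell list miR-16, miR-25 and miR-93 were higher here by 1.00, 0.85 and 0.67 on the log2 scale and miR-92a was lower (-1.64), where 128 of all 480 miRNAs tested were lower. The myeloid miRNA miR-223 was 8.94 higher on the same scale, with an adjusted p of 1.55e-36 in edgeR.

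Plasma was also set against bone marrow, the tissue that makes red cells. 3 of the 4 were higher in plasma, where 26.5% of all miRNAs tested were: miR-486 by 4.28 (SE 0.751), miR-144 by 3.14 (SE 0.651) and miR-451 by 2.27 (SE 0.581) on the log2 scale, with adjusted p of 2.31e-06, 4.64e-05 and 0.000841 in edgeR. miR-144-5p had a log2 fold change of 1.28 (SE 0.640, adjusted p = 0.103 in edgeR). These sizes depended on the scaling. With library size alone in edgeR the changes were 2.99 for miR-486, 1.95 for miR-144, 1.08 for miR-451 (adjusted p = 0.165) and 0.13 for miR-144-5p, and of 192 miRNAs called 69 were higher in plasma, instead of 127 of 207. The same scaling moved the median over all miRNAs tested to -1.11 for plasma against solid tissues and to 0.00 here, from 0.20. With only plasma and bone marrow in the edgeR fit, miR-144-5p passed the test as well (1.10, adjusted p = 0.00261), as it did without either sciatic nerve sample (1.62). With the miR-486 reads taken out of each total, miR-451 stood at 205189 RPM ± 24320 (SD, n = 5) in plasma and 43985 RPM ± 12449 (SD, n = 5) in bone marrow.

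**Figure D2:**
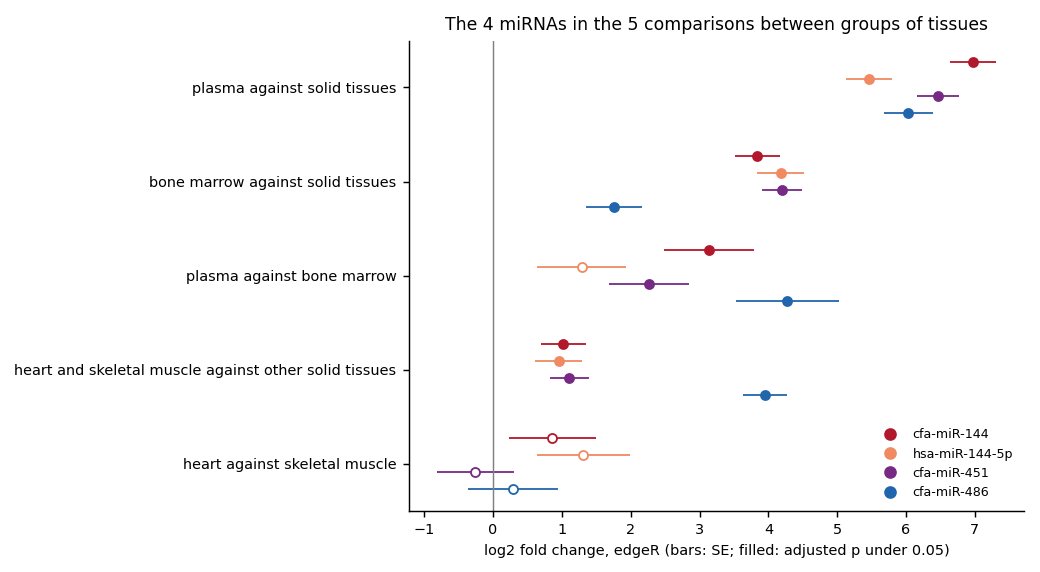
Log2 fold change (x axis, edgeR) of the 4 miRNAs in 5 comparisons between groups of tissues, with bars of 1 SE and filled points at an adjusted p under 0.05. All 4 lie above 0 in plasma and in bone marrow against solid tissues, miR-486 is lowest of the 4 in bone marrow (1.75) and highest in heart and skeletal muscle (3.95).

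The ratio of the arms of miR-144, which does not depend on a library's total, separated plasma from bone marrow. Plasma and bone marrow also differed in RNA extraction, whose part in the ratio was not tested. The log2 ratio of miR-144-5p to miR-144 (each count + 0.5) was -1.60, -1.44, -1.81, -1.76 and -2.01 in plasma and -0.27, -0.05, 0.54, 0.09 and 0.17 in bone marrow. The ratio in plasma was thus at most 0.369 on the linear scale, and the marrow libraries nearly equal amounts (median ratio 1.06). Among solid tissues the median ratio ran from -1.63 in jejunum to 1.16 in brain. The ratio of miR-144 to miR-451, from one transcript, had its tissue medians between -6.87 (duodenum) and -3.72 (liver), so miR-144 was the scarcer of the pair in every tissue.

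The ratio of miR-486 to miR-451 was high in heart, skeletal muscle and sciatic nerve, but not in these alone. It was 5.47, 6.24, 3.95, 9.51 and 5.88 on the log2 scale in heart, had medians of 5.20 in skeletal muscle and 6.47 in sciatic nerve, and was 0.67 to 1.10 in bone marrow, 1.86 to 3.84 in plasma and -0.36 to 0.58 in jejunum. No marrow, plasma or jejunum library reached those of heart, skeletal muscle or sciatic nerve. Other tissues overlapped with them: thymus 2 to 5 had 5.09, 6.02, 4.06 and 4.97, brain 3 and 5 had 6.64 and 6.89, lung 4 had 5.21 and duodenum 4 had 5.19. The ratio of miR-451 to miR-23a, which is used to look for lysed red cells in plasma, was 5.30 to 6.63 in plasma, 4.47 to 5.53 in bone marrow, 2.37 to 3.46 in liver and 1.61 to 4.33 in pancreas, and -2.26 to -1.03 in colon. No haemoglobin value or plasma of known quality was analysed here, and the part of red-cell lysis in the plasma levels was not tested.

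**Figure D3:**
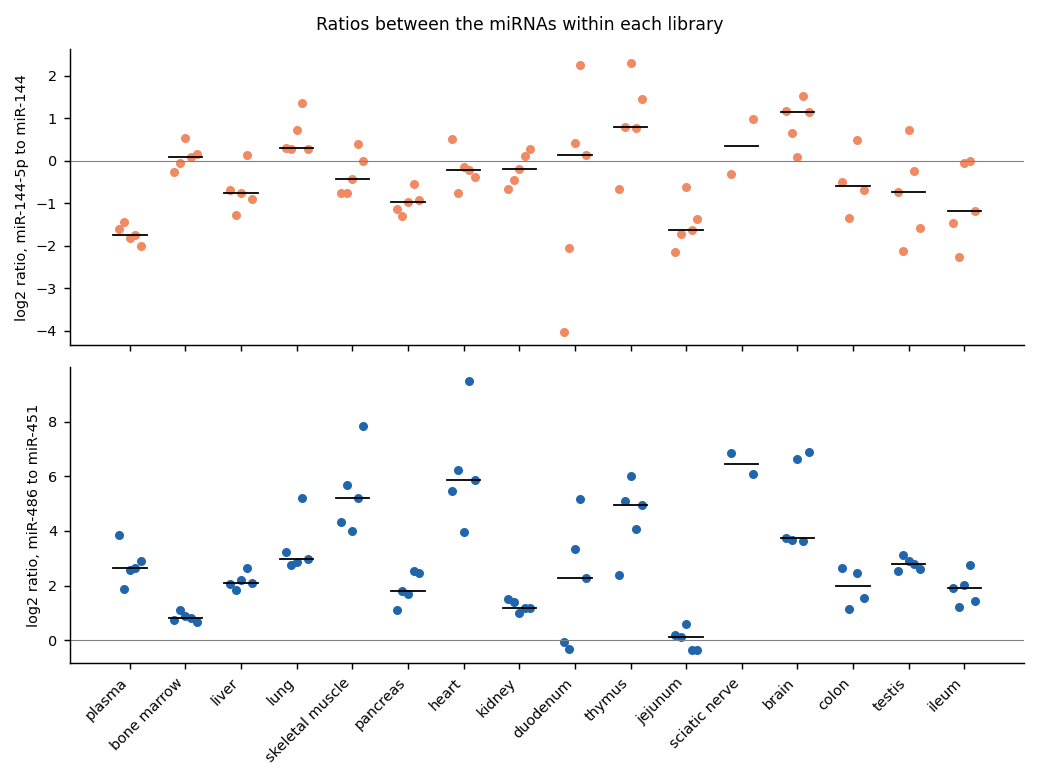
Log2 ratios within each library (points; line: median) of miR-144-5p to miR-144 (top) and of miR-486 to miR-451 (bottom), by tissue. All plasma libraries lie below all marrow libraries at the top, and heart, skeletal muscle and sciatic nerve lie above bone marrow at the bottom, where brain and thymus libraries overlap with them.

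Heart and skeletal muscle, in which miR-486 is known from the muscle cells, held it at 97637, 113425, 113246, 274598 and 119299 RPM in heart and 79475, 52475, 45620, 167330 and 105990 RPM in skeletal muscle. It was the most abundant miRNA in the median heart library, and all 5 heart libraries were above all 5 of bone marrow. Against the 12 other solid tissues, heart and skeletal muscle together were higher by 3.95 on the log2 scale (SE 0.315, adjusted p = 1.14e-17 in edgeR). All 4 miRNAs were higher in this comparison, where 25.4% of all miRNAs tested were, and the log2 fold changes in edgeR of the others were smaller: miR-451 by 1.11 (SE 0.279, adjusted p = 0.000716), miR-144 by 1.02 (SE 0.322, adjusted p = 0.00603) and miR-144-5p by 0.95 (SE 0.345, adjusted p = 0.0166). With library size alone in edgeR miR-144 (0.56) and miR-144-5p (0.54) did not pass the test. Of the 7 other settings, miR-144-5p lost its call in 3 and miR-144 in 1. The call of miR-144-5p was lost with 37 of the 76 libraries when each was left out, and that of miR-144 was lost without heart 3 (0.64, adjusted p = 0.126) or without skeletal muscle 1. Also with library size alone, 75 of 242 miRNAs called were higher, against 122 of 243, and the median over all was -0.61 instead of -0.28.

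Beside these, 6 of 7 striated muscle miRNAs were higher in heart and skeletal muscle, such as miR-1 by 9.51 and miR-133a by 8.68, and 0 of 6 red-cell miRNAs were higher and 3 lower. 4 of 6 leukocyte miRNAs were lower. Over all 480 miRNAs tested, 122 were higher and 121 lower in this comparison. The vessel wall miRNA miR-126 was higher by 1.70 (adjusted p = 8.13e-13 in edgeR). Between heart and skeletal muscle, 0 of the 4 miRNAs passed the edgeR test or had an unadjusted p under 0.05, where 12.7% of all miRNAs tested were called. The log2 fold changes were 1.31 for miR-144-5p (SE 0.676), 0.86 for miR-144 (SE 0.630), 0.29 for miR-486 (SE 0.657) and -0.26 for miR-451 (SE 0.555), and the signs of the last 2 changed with the setting. DESeq2 called 0 of the 4 as well.

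In heart 4 and skeletal muscle 4 a high miR-486 stood beside low muscle miRNAs. Heart 4 had the highest miR-486 of all solid tissue libraries and the lowest miR-451 (377 RPM), miR-144 (11.4 RPM) and miR-144-5p (9.79 RPM) in heart, with a summed level of the muscle list of 44222 RPM against 75819 to 112875 RPM in the others. Skeletal muscle 4 had the highest miR-486 and miR-451 (4550 RPM) of its tissue, with 676 RPM of miR-133a against 36539 to 108825 RPM in the other 4 libraries. Without the 8 libraries low in their own markers, the muscle difference in miR-486 was 4.05 on the log2 scale.

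Each solid tissue was also set against the mean of the other 13 solid tissues, to order the organs by their levels of these miRNAs, which the study's perfusion was meant to lower. In whole tissue, fewer cells of a type and less RNA per cell cannot be told apart. Of 56 combinations 19 were higher, 13 lower and 24 did not pass the edgeR test. Over all miRNAs tested, the share called in these comparisons ran from 20.8% in duodenum to 74.4% in brain. The shares given with each tissue below count both directions, also where the calls named go 1 way. Of the 32 combinations called, 14 kept their call in every other setting and with any 1 library left out, and they are named as such below.

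Liver was higher in all 4, where 43.1% of all miRNAs tested were called in either direction. miR-144 was higher by 3.68 (SE 0.328), miR-144-5p by 3.095 (SE 0.358) and miR-451 by 2.29 (SE 0.329), with adjusted p of 2.23e-08 or less in edgeR, and these calls were kept throughout. miR-486 was higher by 1.04 (SE 0.437, adjusted p = 0.0462), a call lost in 5 of the 7 other settings. Liver is the organ that makes red cells before birth and it clears old ones afterwards. Its leukocyte list summed to 3566 to 5549 RPM.

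Lung was higher in miR-451 (1.45, SE 0.355), which was kept throughout, and in miR-486 (1.30, SE 0.426) and miR-144-5p (1.30, SE 0.418), with 34.8% of all miRNAs called. The latter 2 were lost without lung 2 (adjusted p of 0.0691 and 0.0689 in edgeR), with DESeq2 size factors (0.157 and 0.0999) and in DESeq2 (0.158 and 0.115). Lung was also the tissue with the most miR-126, at 40874 to 64176 RPM. Pancreas was higher in miR-144 by 1.98 (SE 0.373, adjusted p = 9.48e-06 in edgeR, kept throughout) and in miR-144-5p by 1.13 (adjusted p = 0.0265, lost without pancreas 1, 2 or 3 and with library size alone), while its miR-451 did not pass the test (0.66, SE 0.384), with 44.2% of all miRNAs called. Kidney was higher in miR-451 only (1.497, SE 0.354, adjusted p = 0.000434 in edgeR), with 36.7% called, and with library size alone this was 0.64 (adjusted p = 0.263).

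Heart on its own was higher in miR-486 (3.80, SE 0.352, kept throughout), miR-144-5p (1.58) and miR-144 (1.41, SE 0.394), with 34.8% of miRNAs called. Without heart 3, whose miR-451 was 7335 RPM against 377 to 2202 RPM in the other heart libraries, miR-144 (0.78, adjusted p = 0.213) and miR-144-5p (1.01, adjusted p = 0.0992) no longer passed in edgeR, and miR-144-5p did not without heart 1 either. Skeletal muscle was higher in miR-486 (3.49, SE 0.357, kept throughout) and miR-451 (1.16, SE 0.366), with 38.5% called, and without the 8 libraries miR-451 was 0.92 in edgeR (adjusted p = 0.0977). That call was lost in 2 of the 7 other settings, and also without skeletal muscle 1 or 3. Sciatic nerve, at 78557 and 73562 RPM, was higher in miR-486 by 2.12 (SE 0.582, adjusted p = 0.00250 in edgeR, kept throughout) and lower in miR-144 (-2.12, adjusted p = 0.0484, lost in 5 of 7 other settings), with 37.9% called. Its 2 libraries may be parts of a pool rather than single animals. With either left out only 1 nerve library remained, so a kept call says less here than in the other tissues. The muscle list summed to 2018 RPM in the first nerve library and 120 RPM in the second, while miR-486 differed little between them.

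Brain was lower in miR-144 and miR-451: miR-144 was lower (-2.77, SE 0.578, adjusted p = 1.89e-05 in edgeR, kept throughout), as were miR-451 (-2.01, SE 0.492) and miR-144-5p (-1.54, SE 0.546), with 74.4% of all miRNAs called. With library size alone in edgeR miR-451 (-0.75, adjusted p = 0.161) and miR-144-5p (-0.27) in brain did not pass. The call of miR-144-5p was lost in 4 of the 7 other settings, with adjusted p up to 0.689 in edgeR. miR-486 did not pass in brain (-0.37, SE 0.501), with 29004, 17900, 42204, 10850 and 18944 RPM, all above every pancreas library. Testis was lower in miR-486 (-2.71, SE 0.617) and miR-451 (-2.11, SE 0.498), both kept throughout, and in miR-144-5p (-1.77, adjusted p = 0.0157 in edgeR), with 46.2% called. The last call was lost in 3 of the 7 other settings, with adjusted p up to 0.165, and without testis 3 (0.0513).

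The lower gut was poor in miR-486. It was lower in jejunum by -4.06 (SE 0.682, adjusted p = 1.29e-06 in edgeR), in colon by -3.19 (SE 0.713) and in ileum by -2.86 (SE 0.623), all kept throughout, where 43.8% (jejunum), 24.4% (colon) and 31.5% (ileum) of all miRNAs were called. The levels were 985, 475, 2005, 1119 and 1102 RPM in jejunum and 2228, 1842, 1708 and 1721 RPM in colon. In edgeR miR-451 was lower in colon (-1.67, adjusted p = 0.0156) and ileum (-1.37, adjusted p = 0.0180), calls that were lost without colon 1, 3 or 5 and without ileum 1, 2, 4 or 5, and in ileum also with library size alone (-1.11). In jejunum miR-144-5p was lower in edgeR (-1.59, adjusted p = 0.0168), lost without jejunum 1, 2 or 4, and miR-451 did not pass (-0.56, SE 0.432). miR-486 and miR-451 were nearly equal in jejunum, with a median of 1.08 reads of miR-486 for each read of miR-451.

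**Figure D4:**
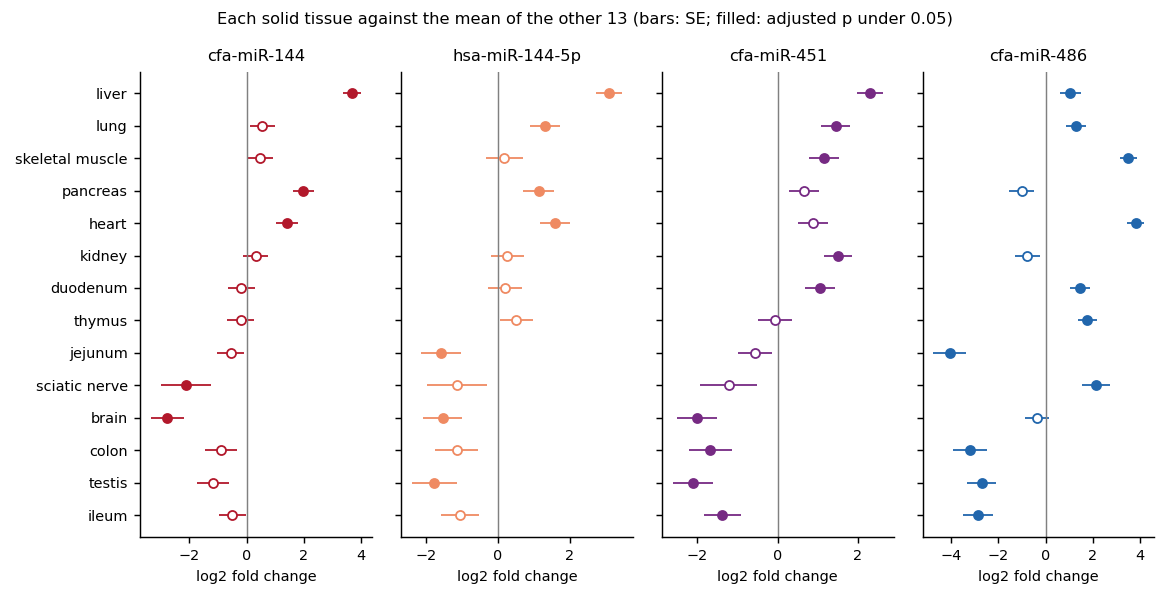
Log2 fold change (x axis, edgeR) of each solid tissue against the mean of the other 13, for miR-144, miR-144-5p, miR-451 and miR-486, with bars of 1 SE and filled points at an adjusted p under 0.05. Liver is highest for miR-144, miR-144-5p and miR-451, and heart and skeletal muscle for miR-486.

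Duodenum and thymus were called higher in miR-486, and in both the call came with libraries low in the tissue's own markers. In duodenum, with 20.8% of miRNAs called, miR-486 was higher by 1.47 (SE 0.420, adjusted p = 0.00649 in edgeR) and miR-451 by 1.05 (adjusted p = 0.0315). The miR-451 call was lost in all 7 other settings (log2 fold changes of 0.63 to 1.01, adjusted p up to 0.331 in edgeR) and with any of 10 libraries left out. The miR-486 levels were 1327 and 747 RPM in duodenum 1 and 2, where the gut miRNA miR-192 was at 267076 and 385247 RPM, and 20846, 72446 and 27993 RPM in duodenum 3, 4 and 5, where miR-192 was at 22363, 5189 and 77588 RPM. The libraries were split with both miRNAs in view, so the gap between the 2 sets is no test. Duodenum 5 was not among the 8 libraries low in their own markers, with miR-192 at 20.1% of the highest duodenum library. miR-451 was 1386, 941, 2035, 1990 and 5842 RPM in the same order, and the leukocyte list summed to 11649, 13684, 1909, 1062 and 5061 RPM. Without the libraries low in their own markers miR-486 in duodenum was -0.13 in edgeR and miR-451 was 1.01 (adjusted p = 0.140), and the miR-486 call was also lost without duodenum 4 (0.18, adjusted p = 0.925 in edgeR) and with library size alone (0.78, adjusted p = 0.197).

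In thymus, with 26.7% of miRNAs called, miR-486 was higher by 1.76 (SE 0.408, adjusted p = 0.000578 in edgeR). Thymus 1 and 4 had 17092 and 4498 RPM of miR-486 beside 426312 and 500018 RPM of miR-181a, a miRNA of developing T cells. Thymus 2, 3 and 5 had 61880, 91060 and 43525 RPM of miR-486 beside 52264, 41991 and 53348 RPM of miR-181a. The leukocyte list summed to 20983 and 21705 RPM in the first pair and to 1134, 1154 and 2027 RPM in the others, and miR-126 ran from 4287 to 9684 RPM in the pair and from 26541 to 29193 RPM in the others. Without the low libraries the edgeR value of miR-486 in thymus was -0.91 (adjusted p = 0.410), and without thymus 3 alone it was 1.19 (adjusted p = 0.0542). miR-451 did not separate the same thymus libraries, with 3306, 1812, 1407, 269 and 1388 RPM in sample order. The study proposes uneven sampling at harvest for the variation among its thymus samples. What sets these libraries apart was not tested.

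**Figure D5:**
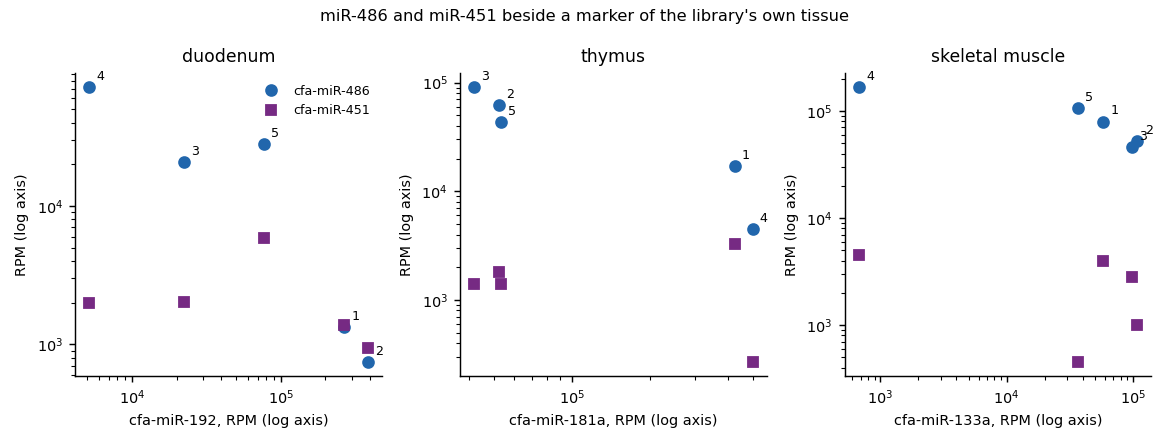
RPM on log axes of miR-486 (circles, numbered by sample) and miR-451 (squares) against a marker of the library's own tissue: miR-192 in duodenum, miR-181a in thymus and miR-133a in skeletal muscle. In these 3 tissues the library with the least of the marker, duodenum 4, thymus 3 and skeletal muscle 4, has the most miR-486. Testis, not drawn, went the other way: testis 3 had the least miR-34c (582 RPM) and the least miR-486 (1168 RPM) of its tissue.

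How closely the miRNAs moved together is given as a description over libraries, which share tissues and scaling. Over the 76 libraries, Spearman's rho of RPM was 0.869 for miR-144-5p and miR-451, 0.826 for both arms of miR-144 and 0.804 for miR-144 and miR-451. For miR-486 it was 0.656 with miR-144-5p, 0.606 with miR-451 and 0.370 with miR-144. Within the solid tissues other than sciatic nerve (64 libraries, log values centred on the tissue), Pearson's r was 0.704 to 0.769 among miR-144, miR-144-5p and miR-451, and 0.058, 0.511 and 0.426 for miR-486 with miR-144, miR-144-5p and miR-451.

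Among 262 other miRNAs with a median above 100 RPM in at least 1 tissue, the one whose RPM followed miR-144 most closely over 76 libraries was miR-101 (rho 0.733), then miR-32 (0.714) and miR-339 (0.658). For miR-144-5p and miR-451 it was hsa-miR-223-5p, an arm of the myeloid miR-223 (rho 0.619 and 0.577). In solid tissues alone, hsa-miR-223-5p ranked 17 for both, at 0.401 and 0.337, while miR-101 still ranked first for miR-144 (0.755). The closest to miR-486 were hsa-miR-331-5p (0.477), miR-1271 (0.462) and miR-126 (0.459), none close to the values among miR-144, miR-144-5p and miR-451 themselves.

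As a share of the plasma median, the level in solid tissues differed by miRNA. Blood content was not measured, so these shares are not amounts of blood. Liver held 10.7% of the plasma median of miR-144, 15.6% of miR-144-5p, 7.56% of miR-451 and 4.96% of miR-486. Heart held 2.18% of miR-144, 6.82% of miR-144-5p, 2.46% of miR-451 and 19.6% of miR-486, and jejunum 0.689%, 0.653%, 1.62% and 0.190%. Across the 66 solid libraries the highest level was 255 times the lowest for miR-144, 184 times for miR-144-5p, 58.9 times for miR-451 and 578 times for miR-486.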

How the data were processed

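Small RNA was sequenced from 16 tissues of untreated beagle dogs, and 76 of 77 labelled samples carried values (1 colon sample had none). The authors clipped adaptors and aligned reads without mismatches to CanFam 3.1 with OSA, dropping reads at more than 10 locations. The deposited count of a miRNA is the number of reads overlapping at least 70% of its locus in dog, human or rat annotation, with rows at about the same place merged by the authors. The deposited signal in RPM is that count scaled by the sample's total of miRNA reads; recomputed values differed by a relative 2.89e-09 at most. A column of each miRNA's highest RPM and 1 sample name in the table, a pool that matched no label, were not used.

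Rows absent from a sample were set to 0. Groups came from the tissue labels. TE calls were computed from RPM. Counts were tested with edgeR 4.0.16 (quasi-likelihood, TMM, low counts filtered, all 76 samples, 480 miRNAs kept, R 4.3.3), and DESeq2 1.42.0 was an alternative. Other alternatives were library size only, DESeq2 size factors, no filter, miR-486 left out of the scaling, only the tissues compared, and each library left out. Tests were run on simulated data first. Python 3.11.15 with scipy 1.17.1 gave the rank-sum tests. No 2 libraries of a tissue agreed within sampling noise (147 pairs compared). The named miRNAs were the 4 rows described, lists of red-cell, leukocyte, muscle and vessel miRNAs, and the 5 most similar miRNAs of each. The members and lists were chosen with earlier results of these data known.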

Additional observations from a re-analysis of the deposited data

Results flagged for a closer look

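Each miRNA and tissue was counted as a group. In 10 of the 60 groups of 4 or 5 samples tested, 1 library lay far from the others by Dixon's criterion. Its cutoffs are set for about 1 group in 20 where values are normal and independent. The groups share libraries and RPM was not tested for normality, so the 10 cannot be held against that rate. For miR-144, plasma 1 was low at 1925 RPM against 3724 to 3979 RPM in the other plasma libraries, and thymus 1 was high at 171 RPM against 7.31 to 31.7 RPM. For miR-144-5p, brain 1 was high at 95.4 RPM against 6.08 to 31.7 RPM, ileum 3 at 81.6 RPM against 5.49 to 13.2 RPM and jejunum 3 at 37.3 RPM against 4.96 to 9.64 RPM, and skeletal muscle 5 was low at 6.33 RPM against 29.9 to 36.5 RPM. The level in skeletal muscle 5 was under 3 reads, which stood for 9.50 RPM in that library. For miR-451, duodenum 5 was high at 5842 RPM against 941 to 2035 RPM and heart 3 at 7335 RPM against 377 to 2202 RPM. For miR-486, heart 4 was high at 274598 RPM against 97637 to 119299 RPM and ileum 3 at 8321 RPM against 864 to 2323 RPM. Ileum 3 was thus apart in both miR-144-5p and miR-486.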

How the results depend on the processing

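The 4 TE calls in plasma and the higher levels of all 4 miRNAs in plasma and in bone marrow than in solid tissues held under every alternative and with any 1 library left out. The TE count in bone marrow, 2 of 4, was 0 with TMM-scaled totals, 0 with the miR-486 reads left out of the total and 1 without the libraries low in their own markers, and 1 to 2 with a library left out. With only the tissues compared in the fit, which tested fewer miRNAs, the calls fell from 207 to 124 for plasma against bone marrow and from 61 to 30 for heart against skeletal muscle. Leaving out a library gave 255 to 284 calls for plasma against solid tissues, 183 to 219 for bone marrow against solid tissues, 186 to 209 for plasma against bone marrow, 225 to 255 for heart and skeletal muscle against other solid tissues, 44 to 66 for heart against skeletal muscle, and 29 to 34 of the 56 solid tissue combinations. Between heart and skeletal muscle, miR-451 turned from -0.26 to 0.0684 with library size only and ran from -0.82 to 0.0748 with a library left out, and miR-486 turned from 0.29 to -0.0414 with only the tissues compared and ran from -0.24 to 0.77. Without the libraries low in their own markers, miR-486 turned to -0.13 in duodenum and -0.91 in thymus. The causes were not tested. DESeq2 size factors left 22 of 78 calls higher in heart than in skeletal muscle, library size only 50 of 74, and the main scaling 30 of 61; for bone marrow against solid tissues they left 105 of 205, 104 of 197 and 86 of 214.

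No paired analysis was possible because the labels carry no dog number. Depth limits the lowest levels of both miR-144 arms, where 3 reads stood for up to 19.0 RPM. The merged miR-486 row, tissue collection, RNA extraction that differed between sample types and the lack of animal labels for the 2 nerve samples limit what the differences describe.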
